A study of Mus musculus with 40 samples.

Results

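The AP-1 immediate-early genes are described here by the 8 genes Fos, Fosb, Fosl1, Fosl2, Jun, Junb, Jund and Atf3. They were picked by gene symbol, and are 8 of the 29411 gene symbols on the array, with 10 of its 40628 probes. RNA from mouse subcutaneous stromal vascular cells (SVCs) had been measured on 40 single-colour Agilent arrays, of which 38 had labels that did not conflict. C57BL/6J mice, weaned at 3 to 4 weeks of age, were fed a low-fat diet with 10% of calories from fat (LFC, 11 arrays), a high-fat high-sucrose diet with 60% (HFC, 11 arrays), or HFC with the ethno-botanical formulation KAL-1 at 5 µg (HF5, 6 arrays), 20 µg (HF20, 5 arrays) or 75 µg (HF75, 5 arrays). LFC and HFC were sampled on days 1, 6, 10 and 14 and every 3 weeks from week 0 to week 18, the KAL-1 diets from week 3, HF5 to week 18 and HF20 and HF75 to week 15, with 1 array for each diet at each of its time labels. Week numbers start on day 14, which is week 0, and LFC and HFC each have 2 arrays there, 1 under either label. The labels give 30 animals per diet, 5 taken every 3 weeks, and speak of 3 biological replicates, but do not say which animals went into an array. The day 6 titles begin with P5 and all others with P4, which the labels do not explain.

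AP-1 is a dimer of basic leucine zipper proteins. Jun proteins pair with each other or with Fos proteins, Fos proteins need a Jun partner, and Atf3 joins the same network mostly as a repressor. Growth factors, cytokines and cell stress switch these genes on within minutes through MAP kinases, serum response factor and cAMP response element binding protein, and their transcripts decay quickly. In fat tissue AP-1 is known for its part in inflammatory signalling and in the proliferation of precursor cells.

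The arrays differed in depth. The 75th percentile of intensity ran from 8.02 on the LFC array of week 3 to 2169 on the LFC array of day 14, with a median over all arrays of 798. On the LFC array of week 3 17.2% of the probes were well above background by the mark of the scanner software, and Fosb, Fosl1, Fosl2 and Atf3 stood at that array's floor of -0.06. The LFC array of day 14 had 9104 outlier spots, and its Fosl1 spot was dropped. Of 9 macrophage markers, a median of 9 were well above background per array and 1 on the LFC array of week 3. Of 12 adipocyte markers, which a stromal fraction should hold at low levels, a median of 12 were well above background. Levels below are log2 values relative to the 75th percentile of the same array.

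Fos, the founding member of its family, was well above background on 38 arrays. Its level ran from -4.96 on the HF20 array of week 12 to 5.85 on the HFC array of week 6, with a median of 4.54, a range of at least 1797-fold. On the LFC array of week 0 its probe was saturated, at 5.55. Fosb, a close relative, ran from -4.55 to 3.72 with a median of 2.14 over 37 arrays. Both were low on the same arrays, among them HFC day 1, LFC day 6, LFC weeks 9 and 12, HF5 week 9 and HF20 weeks 9 and 12. Fosl1, a Fos protein without the strong activation domain of Fos, was well above background on 27 arrays, where it ran from -6.52 to -0.31 with a median of -4.77. Fosl2, which shares that feature, ran from -3.36 to 2.74 with a median of 0.77 over 37 arrays. The 2 probes of Fosl2 did not follow each other closely (Pearson r 0.466, Spearman rho 0.482, n = 37), so values for this gene hold for the brighter probe only.

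Jun, the main partner of Fos, ran from 0.14 on the HFC array of day 1 to 4.36 on the HF75 array of week 6, with a median of 3.41 over 38 arrays. Junb, a Jun protein with weaker activation, ran from 1.63 to 7.49 with a median of 6.34. Its probe was saturated on 23 arrays, where its level is a lower bound, so this median is a lower bound too. The highest level, on the HFC array of week 18, was not saturated, but saturated arrays could stand higher. Jund, the Jun protein with the steadiest expression, ran from 3.41 to 7.68 with a median of 5.87. It was saturated on 7 arrays, so its median is also a lower bound. On the 15 arrays where neither of its 2 probes was saturated, the Junb probes gave nearly the same order (Pearson r 0.984, Spearman rho 0.971, n = 15). Atf3, the stress-induced member, ran from -2.31 on the HFC array of day 1 to 6.39 on the HFC array of day 10, with a median of 4.82 over 37 arrays. It was saturated on the HFC array of week 6, at 6.23, so that array could stand higher.

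**Figure D1:**
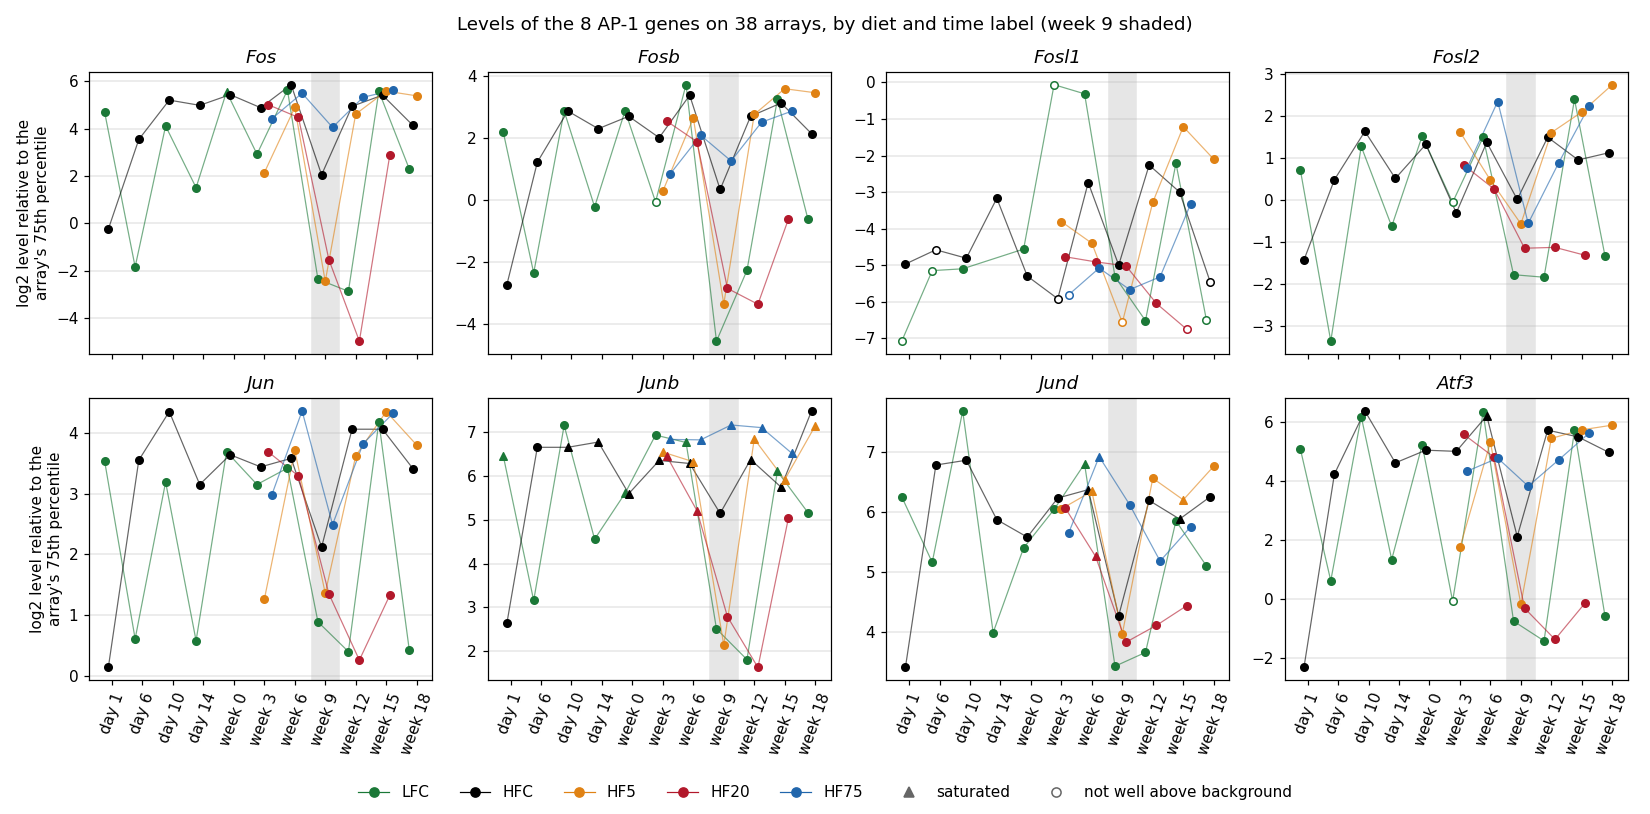
Level of each gene (log2, relative to the array's 75th percentile) against time label, 1 point per array, coloured by diet, with week 9 shaded. Triangles are saturated probes and open circles are values not well above background; Fos stood between -2.44 and 2.05 on the week 9 arrays of all diets but HF75, whose array stood at 4.05.

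The members varied together across arrays. Fos and Fosb had a Pearson r of 0.952 (Spearman rho 0.917, n = 38), Fosb and Atf3 one of 0.945 (rho 0.948, n = 38), and Fos and Jun one of 0.876 (rho 0.87, n = 38). Fosl1 had an r of 0.571 to Fos (rho 0.644, n = 26) and Junb one of 0.953 (rho 0.971, n = 15) over the arrays on which both probes were well above background and not saturated; over all arrays, floors and saturated values included, these were 0.427 (rho 0.575, n = 37) and 0.901 (rho 0.475, n = 38). These are descriptions over arrays that share slides and scan days. Outside the lists used here, the 5 genes most like the mean of the members, of 16112 ranked over 38 arrays, were Gem (r 0.961), Socs3 (0.955), Nfkbiz (0.939), Cxcl1 (0.939) and Csrnp1 (0.936), and 18 genes had an r over 0.9.

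The order of the Fos medians by diet was HF75 at 5.32, HFC at 4.94, HF5 at 4.75, LFC at 2.92 and HF20 at 2.89. The diets cover different time labels, so their medians and ranges are not of the same times. The LFC median is the level of the LFC array of week 3, which had the lowest intensity. The ranges of the diets overlapped, among them -0.24 to 5.85 in HFC, -2.44 to 5.58 in HF5 and -2.86 to 5.62 in LFC. The order of the medians therefore does not stand beyond the spread within a diet. HF75 had the narrowest range, from 4.05 to 5.62, and HF20 the widest, from -4.96 to 5.01. The ranges of the other diets each include a week 9 array with Fos at -2.44 to 2.05. The titles of those arrays differ from that of the HF75 array of week 9, as described below.

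The effect of the high-fat diet was asked by pairing HFC with LFC at the 11 shared time labels. In LFC, Fos had a lowest level of -2.86, a median of 2.92 and a highest of 5.62, and in HFC these were -0.24, 4.94 and 5.85. HFC was the higher of the pair for Fos at 8 of 11 time labels, with a median difference of 1.84 and a range from -4.92 on day 1 to 7.8 in week 12. Limma was fitted with time label as a block, and an adjusted p under 0.05 over all probes counted as past the test. It gave Fos a difference of 1.91 (SE 0.88, p 0.0489, adjusted p 0.942). Across the members 0 of 8 passed the test and 1 had an unadjusted p under 0.05; over all probes 0 of 29215 passed (0%) and 806 had an unadjusted p under 0.05. The median difference was 0.95 over the members and -0.09 over all probes. It was 1.26 over 7 fibroblast markers (1 at an unadjusted p under 0.05), 1.13 over 6 endothelial markers (1) and 0.66 over 12 adipocyte markers (0), whose part in the member differences was not tested. Atf3 differed by 1.8 (SE 1.04, adjusted p 0.942) and Fosl1 by -0.12 (SE 0.75, adjusted p 0.984). With 1 pair left out, Atf3 ran from 1.27 without week 12 to 2.72 without day 1, and Fos from 1.32 to 2.59 without the same pairs. Under the other settings run, the Fosl1 difference ranged from -1.43 to 0.51. It was 0.51 without the week 3 pair, in which the fit took Fosl1 at the floor of the LFC array, -0.06.

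The pairs went in different directions. A level not well above background or saturated was taken as a bound, and pairs of arrays that gave no order for a member were left out of its counts. On day 1 HFC was at least 2-fold lower for 7 of the 8 members, where 20.0% of all probes were lower by that much, and higher for Fosl1 (35.6% of probes higher). It was at least 2-fold higher for 7 of 7 members on day 6 (41.8% of probes higher), 2 of 7 on day 10 (10.6%), 7 of 7 on day 14 (36.1%) and 3 of 5 in week 3 (24.8%). In week 0, 0 of the 6 members measured on both arrays differed by 2-fold (6.71% of probes in either direction); Fos was saturated on the LFC array and Junb on both. On day 14 and in week 0, the same time, Fos stood at 1.51 and 5.55 in LFC and at 4.98 and 5.43 in HFC. HFC was at least 2-fold lower for 1 of 5 in week 6 (Fosl1; 11.8% of probes lower) and 1 of 7 in week 15 (Fosl2; 16.5%), and higher for 6 of 8 in week 9 (8.21% of probes higher), 8 of 8 in week 12 (23.2%) and 7 of 7 in week 18 (24.8%). Fos, Fosb, Jun and Atf3, 4 of the 8 members, were at least 2-fold higher in at least 6 of the 11 pairs, as were 262 of 29457 probes (0.889%), a count whose form was set after seeing the data. Fos was so in 7 pairs, and Fosb, Jun and Atf3 in 6 each, exactly at the cut. Leaving out 1 pair that counted would take Fosb, Jun or Atf3 below it. In week 3 Fosb and Atf3 counted through the floor of the LFC array, -0.06. With 1 array for each diet the pair differences are differences between arrays. Both arrays of a pair lay on 1 slide on day 6 and in weeks 0, 3 and 9, and the part of slide in the pair differences was not tested. The arrays of day 1 were scanned on different days, unlike those of the other 10 pairs. The pairs of day 14, week 3 and week 18 rest on the LFC arrays with outlier spots, with low intensity, and with fibroblast markers at a mean of -5.53.

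**Figure D2:**
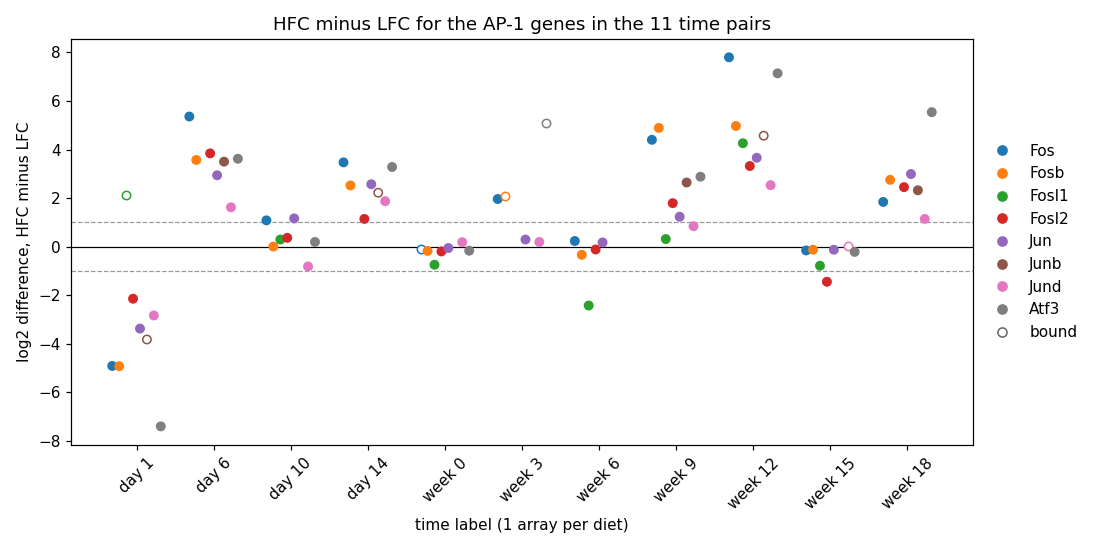
Difference in log2 level between the HFC and the LFC array of each time label, 1 point per gene, with dashed lines at a 2-fold difference, open points for bounds and no point where a pair gave no order. Fos ran from -4.92 on day 1 to 7.8 in week 12.

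Whether the difference between HFC and LFC changed with time was asked by comparing weeks 3 to 18 with days 1 to 14 and week 0. Limma called 0 of 8 members and 0 of 30259 probes (0%), with 0 members and 1207 probes at an unadjusted p under 0.05. With normexp background correction it called 0 members and 7200 probes. The largest value, 3.48 for Atf3, had an SE of 1.94 and an adjusted p of 0.826, and was 1.65 without day 1. The median was 0.9 over the members and -0.52 over all probes. It was 3.87 over 7 T cell markers (5 at an unadjusted p under 0.05), 3.55 over 6 B cell markers (2) and 2.12 over 7 fibroblast markers (0), and the part of these markers was not tested. For the level in the late against the early arrays of both diets, limma called 0 of 8 members and 1 of 30259 probes (0.00330%), with 0 members and 1257 probes at an unadjusted p under 0.05; Fosl1 differed by 1.2 (SE 0.8, adjusted p 1), by 0.76 without week 6 and by 0.04 with normexp background correction. The median of that difference was -0.03 over the members and -1.67 over 12 adipocyte markers, 4 of them at an unadjusted p under 0.05. Both fits took Fosl1 on the late LFC array of week 3 at that array's floor, -0.06. This was the highest Fosl1 value on any array used, although the probe was not well above background there. For Fosl1 the late against early HFC effect was -1.13, and -0.08 without week 3.

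The KAL-1 diets were each compared with HFC at the same weeks, and so share the HFC arrays. In HF20, Fos stood at 5.01 in week 3, 4.47 in week 6, -1.53 in week 9, -4.96 in week 12 and 2.89 in week 15. In HFC the same weeks had 4.88, 5.85, 2.05, 4.94 and 5.41. HF20 was the lower of the pair in 4 of 5 weeks, and the level ranges of the diets overlapped. In each of these weeks the HF20 and HFC arrays lay on different slides, and in week 3 they were scanned on different days. Diet and slide therefore cannot be told apart in the HF20 comparison. Limma gave Fos a difference of -3.45 (SE 1.37, adjusted p 0.401), Atf3 one of -3.19 (SE 1.12, adjusted p 0.401), and Jund one of -1.04 (SE 0.33, adjusted p 0.401). Jund was lower in 4 of 4 weeks with an order; in week 6 it was saturated on both arrays and in week 15 on the HFC array, and Atf3 was saturated on the HFC array of week 6, so that the fitted differences of both are not exact. None of the members passed: 0 of 8, and 0 of 30831 probes (0%), with 5 members and 3673 probes (11.9%) at an unadjusted p under 0.05. The median difference was -1.74 over the members and 0.08 over all probes. Without week 12 the Fos difference was -1.84. In the other lists 0 genes passed this comparison. The median difference was -1.98 for the other immediate-early genes (12 of 14 at an unadjusted p under 0.05), -1.21 for heat shock genes (5 of 6), -1.73 for neutrophil markers (4 of 6), -1.8 for T cell markers (3 of 7) and 1.41 for adipocyte markers (3 of 12). The mean adipocyte level was 2.08, 0.4, 4.77, 5.22 and 4.88 in weeks 3, 6, 9, 12 and 15 of HF20 and 1.54, 0.34, 4.53, 2.52 and 0.93 in HFC. The part of these markers in the member differences was not tested.

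In HF5 limma called 0 of 8 members and 0 of 29200 probes (0%), with 0 members and 1517 probes at an unadjusted p under 0.05; Fos differed by -1.18 (SE 0.7, adjusted p 0.962), lower in 4 of 6 weeks. The median difference was -0.42 over the members, -0.43 over 9 macrophage markers (4 at an unadjusted p under 0.05) and -0.89 over 3 erythroid markers (2), and the part of these markers was not tested. The Fos difference was -0.52 without week 9 and 0.36 in the pairs on 1 slide, chosen after seeing the data. In HF75, 0 of 8 members and 295 of 28910 probes (1.02%) were called by limma, with 2 members and 4220 probes (14.6%) at an unadjusted p under 0.05. Those were Fosl1, at -1.26 (SE 0.51, adjusted p 0.318; -0.8 without week 12), and Junb. The brighter probe of Fosl2 differed by 0.43 (SE 0.38, adjusted p 0.694), by 0.22 without week 15 and by 0.69 without week 12. The other probe of Fosl2 differed by 3.24 (SE 0.78, p 0.00413, adjusted p 0.127), and the mean of both probes by 1.84. Junb stood at 6.84, 6.83, 7.17, 7.11 and 6.52 in weeks 3, 6, 9, 12 and 15 of HF75, saturated on each of these arrays, and was saturated on both arrays in 4 of 5 pairs. In those 4 pairs the difference has no bound. In week 9 HFC stood at 5.15, not saturated, and the difference was at least 2.02. The limma fit takes saturated values as they stand, so no fitted difference is given for Junb. The HF75 array of week 9 lacks WS in its title and the HFC array has it. In each of the 5 pairs the HF75 and HFC arrays lay on different slides. Those of weeks 3, 6 and 9 were also scanned on different days. Diet and slide therefore cannot be told apart in the HF75 comparison. Of 7 fibroblast markers 1 was called lower and 5 had an unadjusted p under 0.05 (median difference -0.83), and of 9 macrophage markers 0 were called and 5 had such a p (median -0.96); their part in the member differences was not tested. The 295 probes went to 0 with the time block dropped, 0 without week 3, 7 without week 6, 95 without week 12 and 35 without week 15.

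In week 9, every diet but HF75 had WS in the title of its array, which the labels do not explain. These 4 arrays were compared with the 8 arrays of the same diets in weeks 6 and 15. Fos stood at -2.35 in LFC, 2.05 in HFC, -2.44 in HF5 and -1.53 in HF20 of week 9, and had a lowest level of 2.89, a median of 5.49 and a highest of 5.85 in weeks 6 and 15. The sets of arrays did not overlap for Fos or Jund, 2 of the 8 members, and overlapped for the others. Both were lower on the WS arrays, as were 495 of 31346 probes without overlap (1.58%). Limma put 6 of 8 members past the threshold, each lower on the WS arrays, against 2226 of 31346 probes in either direction (7.10%) and 777 lower (2.48%). With slide as a random block 0 of 8 members and 0 probes passed (Fos -6.14, adjusted p = 0.277 with an estimated correlation; the consensus correlation was 0.756). At an unadjusted p under 0.05 there were 8 members and 9281 probes (29.6%) in the fit without that block.

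Fos was lower by a log2 difference of -6.11 (SE 0.66, adjusted p 0.0363), Fosb by one of -5.22 (SE 0.8, adjusted p 0.0385) and Atf3 by one of -4.72 (SE 0.9, adjusted p 0.0385). In the Jun family, Jun differed by -2.06 (SE 0.44, adjusted p 0.0401), Jund by -2.02 (SE 0.34, adjusted p 0.0385) and Junb by -2.78 (SE 0.47, adjusted p 0.0385). Junb was saturated on 7, Jund on 6 and Atf3 on 1 of the 8 arrays of weeks 6 and 15, and none of them on the WS arrays. The fitted differences of these 3 genes are therefore not exact. Fosl1 (-2.29, SE 0.87, adjusted p 0.124) and Fosl2 (-1.83, SE 0.54, adjusted p 0.0672) did not pass. With normexp background correction Fosl1 differed by -0.79. The calls, more than the sizes of the differences, depended on single arrays. With 1 array left out, Fos differed by -6.95 to -5.49, Fosb by -5.99 to -4.29, Atf3 by -5.41 to -4.03 and Jund by -2.35 to -1.73. Over the same fits Fosl1 differed by -3.32 to -1.7 and Fosl2 by -2.24 to -1.2. No member and no probe passed in 9 of 12 such fits (0 of 8), namely without week 6 of LFC, HFC, HF5 or HF20, week 9 of LFC or HF5, or week 15 of LFC, HFC or HF5. Without the HFC array of week 9 it was 1 of 8 members and 4 probes, without the HF20 array of week 9 it was 8 of 8 and 3701 probes, and without the HF20 array of week 15 it was 8 of 8 and 6750 probes. The 4 WS arrays lay on 2 slides scanned on 1 day that held no array of weeks 6 and 15. In these 4 diets week 9, WS, slide and scan day therefore cannot be told apart. The HF75 array of week 9, without WS and on another slide and scan day, was not in the fit. It had Fos at 4.05, Fosb at 1.26, Atf3 at 3.84, Jun at 2.49, Jund at 6.12 and Junb at 7.17 (saturated), each above the WS arrays. Its Fosl1 (-5.67) and Fosl2 (-0.56) lay inside the range of the WS arrays.

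Low levels were not confined to week 9. In week 12 Fos stood at -2.86 in LFC and -4.96 in HF20, whose titles lack WS, while HFC stood at 4.94, HF5 at 4.61 and HF75 at 5.32. Set against week 12 alone, which was added once the levels were known, the Fos difference of the WS arrays was -1.5 (adjusted p 0.81) and 0 of 8 members passed; against weeks 3, 6, 12 and 15 it was -4.63 (adjusted p 0.219), again with 0 of 8.

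Other genes of the AP-1 route were counted in the same week 9 comparison. Of 14 other immediate-early genes 11 were lower and 0 higher, with a median of -2.55 against 0.02 over all probes, led by Ier3 (-4.4), Egr1 (-4.05) and Nr4a2 (-3.28). With slide as a random block 0 of the 14 passed (lowest adjusted p = 0.277 with an estimated correlation), and no gene of the lists below did. Of 17 AP-1 target genes 7 were lower (median -2.17), led by the cytokine Il6 (-7.61), the prostaglandin enzyme Ptgs2 (-5.84) and the cytokine Il1b (-5.61). Among the genes that damp the route, MAP kinase phosphatases and mRNA decay factors, 4 of 10 were lower (median -1.31), Dusp2 by a difference of -3.97, Zfp36 by -3.89 and Dusp1 by -2.5. Of 11 leucine zipper partners 3 were lower (median -0.23), Maff (-2.84), Mafk (-1.87) and Batf (-1.76). Limma called 0 of 14 upstream kinases (median 0.14, 2 at an unadjusted p under 0.05), 0 of 7 genes for serum response factor, its partners and cAMP response element binding protein (median -0.28, 0 at that p) and 0 of 6 heat shock genes (median -0.42, 2 at that p). These calls share the arrays of the member calls. With 1 array left out no gene passed in 9 of 12 fits for the other immediate-early genes and in 10 of 12 for the targets, the damping genes and the leucine zipper partners.

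Adipocyte markers moved the other way on the WS arrays of week 9. Their mean level was 4.53 to 4.81 on the WS arrays and 0.3 to 4.88, with a median of 0.9, in weeks 6 and 15, where the highest value was the HF20 array of week 15. Their summed level was 8.45 to 8.82 on the WS arrays and 5.9 to 8.88 in weeks 6 and 15, Fabp4 was the brightest of them on 24 of the 38 arrays, and each of the 12 was well above background on the WS arrays. Of the 12 genes 8 were higher and 0 lower, led by Lep (6.36), Retn (6.29) and Plin1 (5.51), where 4.62% of all probes were called higher. With slide as a random block 0 of 12 passed (lowest adjusted p = 0.277 with an estimated correlation), and with 1 array left out none passed in 10 of 12 fits. Of 9 macrophage markers 1 was lower, Cd14 (-2.99), with a median difference of -0.11 over the list and a mean level of 0.49 to 1.06 on the WS arrays, inside the 0.13 to 2.21 of weeks 6 and 15. Of 6 endothelial markers 1 was lower, Vwf (-2.07; list median -0.38), and of 7 fibroblast markers 1, Pdgfra (-1.31; list median -0.48). Of 6 neutrophil markers Ltf was lower (-5.84) and 4 had an unadjusted p under 0.05, with a median difference of -2.02. Their mean level was -3.93 to -2.57 on the WS arrays and -2.08 to 1.15 in weeks 6 and 15, without overlap, and their summed level was -0.05 to 1.86 and 2.88 to 5.94. Cd14, Vwf, Pdgfra and Ltf did not pass with slide as a random block (lowest adjusted p = 0.277 with an estimated correlation). Limma called 0 of 7 T cell (1 at an unadjusted p under 0.05), 0 of 5 B cell (2), 0 of 6 skeletal muscle (0) and 0 of 3 erythroid markers (0). In these bulk samples fewer cells of a type and less RNA per cell cannot be told apart, and the part of cell composition in the member levels was not tested.

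Some other arrays with a high adipocyte mean also had low Fos. The adipocyte mean was 4.55 on HFC day 1, 5.74 on LFC day 6, 4.66 on LFC week 12, 5.22 on HF20 week 12 and 4.88 on HF20 week 15, with Fos at -0.24, -1.83, -2.86, -4.96 and 2.89 in that order. This did not hold for all arrays. The HFC array of day 6 had an adipocyte mean of 5.42 with Fos at 3.54. Fos was at 1.51 on LFC day 14 and 2.14 on HF5 week 3, with adipocyte means of 1.75 and 0.48, and LFC week 18 had Fos at 2.29 with an adipocyte mean of -4.14, a neutrophil mean of 5.25 and an erythroid mean of 5.18.

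**Figure D3:**
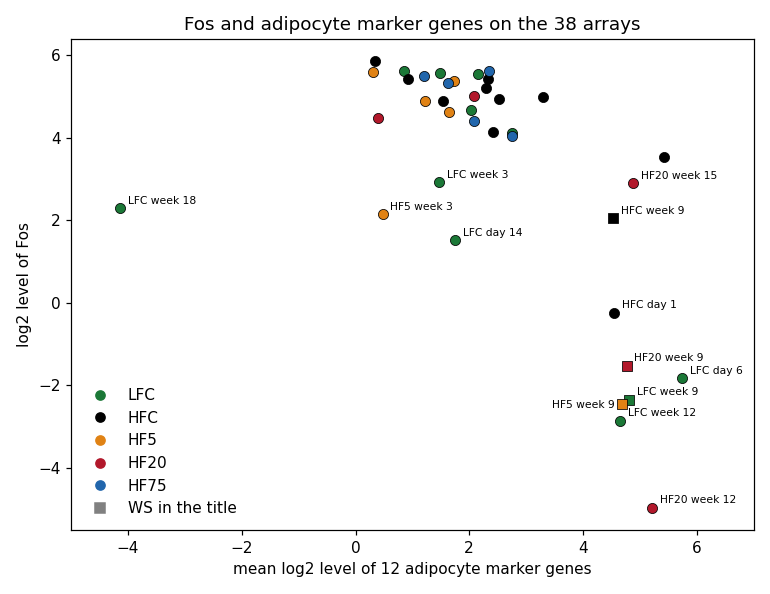
Log2 level of Fos against the mean log2 level of 12 adipocyte marker genes, 1 point per array, coloured by diet, with squares for WS in the title and names for arrays with Fos under 3. The 4 WS arrays had adipocyte means of 4.53 to 4.81 and Fos levels of -2.44 to 2.05.

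Promoter windows from 250 bases before to 50 bases after the start were taken from RefSeq (GRCm38.p6) for 7 of the 8 members; Fosl1 was not matched. The 5-base core of the cAMP response element, TGACG, lay in 4 of the 7 windows on either strand, against 6837 of 32851 windows of all genes (20.8%). The full element TGACGTCA, which contains this core, lay in 0 of 7 (1.79% of all windows), the AP-1 site TGANTCA in 0 of 7 (7.81%) and the CArG box of serum response factor in 0 of 7 (1.63%). The 4 windows with the core are shown because they are the members in which a searched motif was found. They lie at chr12:85473640-85473939 on the plus strand for Fos and, on the minus strand, at chr7:19309996-19310295 for Fosb, chr8:84978699-84978998 for Junb and chr1:191183284-191183583 for Atf3. Each is written 5′ to 3′ along the gene, and capitals mark the core, in Atf3 on the opposite strand.
Fos: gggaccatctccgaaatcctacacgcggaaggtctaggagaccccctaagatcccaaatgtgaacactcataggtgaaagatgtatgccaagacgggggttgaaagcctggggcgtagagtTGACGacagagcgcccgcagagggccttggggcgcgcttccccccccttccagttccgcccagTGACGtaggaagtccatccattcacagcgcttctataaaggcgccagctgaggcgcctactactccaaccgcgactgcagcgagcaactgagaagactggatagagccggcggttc
Fosb: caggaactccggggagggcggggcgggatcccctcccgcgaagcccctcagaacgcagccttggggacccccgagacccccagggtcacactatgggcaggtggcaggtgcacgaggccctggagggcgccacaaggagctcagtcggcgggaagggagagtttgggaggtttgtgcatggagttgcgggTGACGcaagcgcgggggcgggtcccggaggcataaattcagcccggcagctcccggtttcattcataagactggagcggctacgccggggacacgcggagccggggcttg
Junb: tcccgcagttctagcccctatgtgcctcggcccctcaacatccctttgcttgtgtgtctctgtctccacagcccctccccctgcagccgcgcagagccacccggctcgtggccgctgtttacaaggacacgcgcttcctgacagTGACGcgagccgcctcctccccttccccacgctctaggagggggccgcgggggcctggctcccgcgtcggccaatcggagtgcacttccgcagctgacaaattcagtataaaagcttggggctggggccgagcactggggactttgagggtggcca
Atf3: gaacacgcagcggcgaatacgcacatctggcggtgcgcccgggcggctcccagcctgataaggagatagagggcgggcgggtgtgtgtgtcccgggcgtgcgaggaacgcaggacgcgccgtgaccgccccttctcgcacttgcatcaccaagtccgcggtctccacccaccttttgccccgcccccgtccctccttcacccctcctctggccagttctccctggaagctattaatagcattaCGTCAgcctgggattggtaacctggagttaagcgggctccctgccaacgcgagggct
Jun, Jund and Fosl2 had none of the 4 motifs in this window. Sites farther from the start, or with letters other than those searched, would not have been found, so a count of 0 does not show that a gene lacks such an element. Whether these letters are bound in these cells was not measured.

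The comparisons have 1 array for each diet and time, and so no replicate of a condition but for LFC and HFC at day 14 and week 0. The number of arrays limits the precision. Slide and scan day differed between time labels, and the title did so for some. Differences between time labels cannot be told apart from these, although slide and scan day also varied within some time labels. Saturation leaves a bound for Junb on 23 arrays, for Jund on 7 and for Fos and Atf3 on 1 each, and Fosl1 lay near background on many arrays. Transcript levels do not show AP-1 protein or activity.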

How the data were processed

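RNA from subcutaneous SVCs had been labelled with Cy3 and hybridized to Agilent mouse arrays. The deposited values are spot intensities from which the software had subtracted background; no scaling across arrays had been applied. Per the file headers they came from Feature Extraction 10.5.1.1, while the labels name version 9.1. The authors' fold changes were not used; gene symbols were taken from their table. Of 40 arrays 38 were used, and 2 arrays of week 18 with conflicting labels were left out.

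Outlier spots were dropped, log2 intensities were averaged per probe, and each array's 75th percentile over probes was subtracted. A probe was well above background where at least 50% of its spots were, and values that were not were raised to the array's lowest such level. Where a gene had several probes, the one brightest on average stood for it. Limma 3.58.1 (R 4.3.3, the data.table package, version 1.17.8, statmod 1.5.0) was fitted to probes that passed this mark in 50% or more of either group, with Benjamini-Hochberg adjustment over all probes and a threshold of 0.05. Time label was a block in the diet comparisons and in the late against early HFC effect, and diet was a term in the level comparisons of late against early arrays and of week 9. Within 1 time label a 2-fold difference was counted, with a level not well above background or saturated as a bound and no count where both were saturated or the bound gave no order. The fits were also run on simulated data, and no result given here rests on that run. Tables and figures used Python 3.11.15, pandas 2.3.3 and matplotlib 3.10.9.

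As a check of the pairing, deviations from the group means of arrays with the same time label correlated at -0.289 to 0.681 for HFC and LFC, over 0.1 in 8 of 11 pairs, and over 0.1 in 6 of 6 for HF5, 3 of 5 for HF20 and 3 of 5 for HF75.

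Named genes were all 8 members, the 3 genes of each list with the largest difference in week 9 among those past the threshold, and the 5 genes most correlated with the members. Members and lists were chosen with earlier results of these data known.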

Additional observations from a re-analysis of the deposited data

Results flagged for a closer look

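On the HF5 array of week 9 Junb stood at 2.14 and Jund at 3.97, each far below the other 5 HF5 arrays, which ran from 5.92 to 7.15 for Junb and from 6.05 to 6.76 for Jund. The array had WS in its title. Junb was saturated on each of the other 5 arrays and Jund on 2 of them, so those levels are lower bounds, and the spread behind both flags is not exact. Of 24 sets examined, 1 for each gene and KAL-1 diet, 2 had an array this far from the rest, and chance gives about 1 in 20.

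Of the 2 arrays of week 18 whose labels conflict, 1 had Jun at 4.19, just above the highest of the 11 LFC arrays, 4.18. No diet can be given to this array.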

How the results depend on the processing

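Of 76 member counts under other settings 65 belong to comparisons in which 0 members passed in the main fit. At most 295 probes passed in the main fit of those comparisons, and agreement (64) says little. In week 9, 8 of 11 matched the main count within 1.5 times. Of 584 member differences 532 kept their direction and their side of the threshold. In week 9, 18 lost and 3 gained the threshold and 0 changed sign. With 1 time pair or array left out, 387 of 488 differences kept both. Normexp background correction, quantile normalization, no floor, no filter and the mean of a gene's probes left the week 9 count at 6 of 8, and a stricter filter, which dropped Fosl1, gave 7 of 7. With slide as a random block it was 0. In alternatives chosen after seeing the data it was 0 against weeks 3, 6, 12 and 15 and 0 against week 12, but 8 without HF20 arrays and 6 without a diet term. Leaving out 1 array gave 0 to 8. For HFC against LFC the count was 0 in each fit, while 4 members differed at least 2-fold the same way in at least 6 of 11 time pairs, against 0.889% of probes, a form of the count also set after seeing the data. Fosb, Jun and Atf3 stood exactly at that cut, with 6 pairs each, so leaving out 1 such pair would take them below it. The causes were not tested.

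Over all probes, normexp called 7200 for the late against early HFC effect, where the main setting called 0, and 486 for week 9, where it called 2226. With no filter the week 9 number was 780, and it was 3004 with quantile normalization. For HF75 against HFC the 295 probes became 153 with no filter and 149 with the stricter one.

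Time label was the block in the diet comparisons. With no replicate block the member count was 0 in the 4 diet comparisons, and the 295 probes of HF75 became 0; the unblocked fit changed no call of a member. Arrays of a time label were not shown to be pairs for HFC and LFC, HF20 or HF75.

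Some differences that passed no test changed sign. Fosl1 in HFC against LFC was 0.06 with no floor, 0.09 with slide as a random block and 0.51 without week 3 and day 14. With normexp, Fosl1 was -0.66 in HF5 against HFC and 2.35 in the late against early HFC effect. For the late against early level normexp gave -0.04 for Fosl2, -0.13 for Jun and -0.11 for Junb, quantile normalization -0.04 for Jun and -0.25 for Junb, no floor -0.01 for Fosl2, and the slide block 0.02 for Fos and 0.07 for Fosb. Without week 3 and day 14 that level was -0.18 for Jun and -0.15 for Junb, and without week 9 it was 0.58 for Fos, 0.56 for Fosb, 0.14 for Jund and 0.1 for Atf3. Quantile normalization put Jund at -0.04 in HF5 and -0.17 in HF75 against HFC. Without week 9, Junb was 0.11 in HF5, and Fos -0.06 and Jund -0.29 in HF75. Junb was saturated on both arrays in 4 of 6 HF5 pairs and gave an order in week 9 only, so its fitted values in HF5 are not measured differences. The mean of probes gave Fosl2 -0.4 in the late against early HFC effect. Pairs on 1 slide, chosen after seeing the data, gave 0.36 for Fos, 0.62 for Fosb, 0.08 for Jun, 0.1 for Junb and 0.3 for Atf3 in HF5, and pairs scanned on 1 day -0.56 for Jund in HF75.

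For HFC against LFC the left-out range was -0.61 to 0.51 for Fosl1. For HF5 against HFC the left-out range was -0.07 to 0.93 for Fosl1 and -0.59 to 0.11 for Junb. For HF75 against HFC the left-out range was -0.06 to 0.56 for Fos, -0.02 to 0.29 for Jun, -0.29 to 0.42 for Jund and -0.75 to 0.04 for Atf3. For the late against early HFC effect the left-out range was -0.33 to 1.17 for Fosl2 and -0.28 to 1.3 for Jun. For the late against early level the left-out range was -0.7 to 0.58 for Fos, -0.57 to 0.56 for Fosb, -0.32 to 0.4 for Fosl2, -0.15 to 0.4 for Jun, -0.21 to 0.38 for Junb, -0.41 to 0.2 for Jund and -1.02 to 0.25 for Atf3.

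Signal over background limits the faint genes: its median was 4.86, from 1.53 on the LFC array of week 3 to 55.4 on the LFC array of day 14.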

Other observations

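The 2 arrays of week 18 with conflicting labels were in no comparison. On 1 of them, with 21710 outlier spots, Fos stood at 2.68, Fosb at 0.44, Fosl2 at -0.08, Jun at 1.15, Junb at 4.22 (saturated), Jund at 3.29 and Atf3 at 3.03, with Fosl1 dropped as an outlier spot. That Jund level lay below all 11 LFC arrays, whose lowest was 3.43. On the other Fos stood at 5.53, Fosb at 3.57, Fosl1 at -3.27, Fosl2 at 2.1, Jun at 4.19, Junb at 7.05 (saturated), Jund at 7.12 and Atf3 at 6.21.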
